A study of Mus musculus with 12 samples.

Results

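The Popeye domain genes Bves (also called Popdc1), Popdc2 and Popdc3 were followed across the 12 libraries of an RNA sequencing study of HL-1 cells. They are 3 of the 23184 gene symbols in the deposited expression table and were taken by name as the whole mouse family. The family was picked out with its levels in these libraries known, in particular the low level of Bves in knockdown cells, so its own levels and differences are a description and carry no p-value. The study asked which genes are most related to Wdr62 expression; its product is a scaffold protein of the spindle pole. HL-1 is an atrial cardiomyocyte line of the mouse. Control cells (CON) were WT in genotype and had been infected with viruses packaging pCDH and lentiCRISPRv2. Knockdown cells (KD, genotype WDR62-) had been infected with a virus carrying an sgRNA for the Wdr62 gene, for CRISPR/Cas9. Re-expression cells (RE, genotype WDR62+) were KD cells infected in addition with virus for pCDH-WDR62-WT-flag, so RE carried the guide as well. All cells were grown in DMEM with serum, the labels do not say whether KD was 1 clone or a mixed population, and each group had 4 libraries.

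Popeye proteins are membrane proteins whose cytoplasmic Popeye domain binds the second messenger cAMP. They are known from heart and skeletal muscle, where they lie at the cell surface and in other membranes and bind, among others, the potassium channel TREK-1 and caveolin-3. Mice lacking Popdc1 or Popdc2 have a slow and irregular heartbeat under stress, and human variants of the family are linked to muscular dystrophy and disturbed cardiac conduction.

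Bves and Popdc3 are neighbours. In the GENCODE M21 annotation of GRCm38, Popdc3 (ENSMUSG00000019848.14) spans chr10:45178098-45318452 and Bves (ENSMUSG00000071317.4) spans chr10:45335772-45372479, both on the plus strand and 17319 bases apart. Popdc2 (ENSMUSG00000022803.12) lies at chr16:38362209-38378216, also on the plus strand. The coding sequences were 1077 bases long in Bves, 1116 in Popdc2 and 876 in Popdc3. In pairwise alignment they were identical at 60.1% of aligned bases between Bves and Popdc3, 58.3% between Bves and Popdc2 and 62.3% between Popdc2 and Popdc3. The stretch of 60 coding bases in which the family is most alike is shown for each gene to make the relatedness visible, with capitals at the 28 bases that are the same in all 3 genes. It codes for one of the short conserved motifs of the cAMP-binding site, and the bases are numbered from the first base of the start codon.
Bves, coding bases 640 to 699: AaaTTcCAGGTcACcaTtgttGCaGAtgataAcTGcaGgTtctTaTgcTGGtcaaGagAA
Popdc2, coding bases 592 to 651: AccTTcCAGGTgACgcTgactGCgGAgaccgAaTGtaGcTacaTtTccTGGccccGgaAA
Popdc3, coding bases 586 to 645: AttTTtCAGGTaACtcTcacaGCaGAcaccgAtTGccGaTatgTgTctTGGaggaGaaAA
The longest run of identical bases shared by any annotated transcripts of 2 members was 12 bases for Bves and Popdc3, 11 for Bves and Popdc2 and 14 for Popdc2 and Popdc3. Popdc2 overlaps the protein-coding Gm21987 on the same strand. Popdc3 overlaps the small RNA genes Gm27723 (same strand) and Gm26016, the antisense gene Gm15934 and the pseudogene Gm47433. None of these is a row of the table, how reads in the overlaps were counted is not given, and no annotated gene overlaps Bves.

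The values are TPM (transcripts per 1000000 transcripts), a level per transcript length that can be compared between genes. The deposited columns hold no read counts, so the depth of each library is unknown. Between 14060 and 14733 genes were above 0 in a library. Long transcripts (2268 tested genes of 5193 bases or more) deviated from their gene means on the log2(TPM + 1) scale by a median of -0.82 in CON 4, -0.72 in RE 1 and -0.99 in RE 3, against -0.21 to 0.70 in the other 9 libraries. The counts of called cAMP signalling genes further below are therefore also given without these 3 libraries. Wdr62, the targeted gene, was at 7.45, 6.61, 6.50 and 3.38 TPM in CON, 1.40, 0.944, 1.37 and 0.881 TPM in KD, and 1.47, 0.772, 0.826 and 1.99 TPM in RE. KD against CON differed by -1.67 ± 0.25 (SE, on the log2(TPM + 1) scale; limma adjusted p = 0.000921; exact two-sided permutation p = 0.0286, the smallest that 4 against 4 can give). The mouse Wdr62 row showed no called rise in RE, at 0.05 ± 0.25 over KD (limma adjusted p = 0.895) and -0.09 to 0.16 with 1 library left out. Its difference was larger but not called under median-of-ratios scaling (0.22 ± 0.19, limma adjusted p = 0.407) and quantile normalization (0.40 ± 0.21, 0.210). With a correction for transcript length it was 0.56 ± 0.22 (limma adjusted p = 0.137), also not called. The labels do not give the species or codons of the construct.

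The libraries carried few transcripts of working heart muscle. Of 8 atrial markers 2 (Myl4 and Nr2f2) had a mean of at least 1 TPM, and Myl7, Sln and Kcnj5 were listed at 0 in every library. Of 10 general cardiomyocyte markers only Tnnt2 had a mean of at least 1 TPM over the 12 libraries, Tnni3 was at 0 to 2.83 TPM, and Actn2, Actc1, Mybpc3 and Myl2 were listed at 0 in every library. Skeletal muscle markers were present at low level, with Myod1, the regulator of skeletal muscle fate, at 4.27 to 8.18 TPM in CON. Summed fibroblast markers (5 of 7 genes at 1 TPM or more) were at 604 to 876 TPM in CON, 705 to 859 in KD and 362 to 518 in RE, most of it Col1a2. Summed smooth muscle markers (3 of 4 genes) were at 493 to 1087 TPM in CON, 699 to 1120 in KD and 277 to 1482 in RE. Endothelial markers summed to 0.232 to 1.13 TPM over all libraries and macrophage markers to 4.35 to 13.6 TPM. Epicardial markers, nearly all Msln, summed to 104 to 125 TPM in CON, 24.8 to 32.6 in KD and 25.0 to 26.6 in RE.

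Bves, the founding member of the family, was high in control cells, lowest in knockdown cells and in between after re-expression. The CON libraries held 53.8, 65.2, 50.5 and 40.8 TPM of Bves, a mean of 52.6 ± 10.1 (SD, n = 4). In the KD libraries it was 5.14, 4.47, 7.08 and 4.28 TPM, a mean of 5.24 ± 1.28 (SD, n = 4). In the RE libraries it was 16.7, 15.7, 15.1 and 19.4 TPM, a mean of 16.7 ± 1.89 (SD, n = 4). No library of any group overlapped with another group, and the order was CON, RE, KD throughout. KD stood at 9.96% of the CON mean and RE at 31.8%. In CON, 84.6% of the genes in the table had a lower mean than Bves, against 56.8% in KD and 72.1% in RE. On the log2(TPM + 1) scale, on which differences of low genes are understated, Bves differed by -3.10 ± 0.20 (SE; 95% interval -3.53 to -2.68) in KD against CON. RE against KD differed by 1.52 ± 0.20 (1.09 to 1.95), and RE against CON by -1.58 ± 0.20 (-2.01 to -1.16).

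Popdc3, the neighbour of Bves and the least studied member, followed the same order. It stood at 83.3, 82.4, 78.4 and 52.2 TPM in the CON libraries, with CON 4 below the other 3 and a mean of 74.1 ± 14.7 (SD, n = 4). The KD libraries were at 11.7, 12.1, 14.0 and 14.0 TPM, a mean of 12.9 ± 1.21 (SD, n = 4). The RE libraries were at 34.5, 33.8, 22.0 and 31.9 TPM, with RE 3 the lowest and a mean of 30.6 ± 5.84 (SD, n = 4). As for Bves, the 3 groups did not overlap. KD stood at 17.5% and RE at 41.2% of the CON mean. The differences were -2.41 ± 0.20 (SE; 95% interval -2.83 to -1.98) for KD against CON, 1.16 ± 0.20 (0.73 to 1.59) for RE against KD, and -1.25 ± 0.20 (-1.67 to -0.82) for RE against CON. CON 4 and RE 3, the lowest Popdc3 libraries of their groups, are also among the 3 in which long transcripts were low. RE 1, also among these 3, was the highest Popdc3 library of RE. The transcript with the longest coding sequence is 1853 bases in Popdc3 and 4368 in Bves, both under the 5193 bases of the long transcripts. A link was not tested.

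The balance between the neighbours also differed by group. Bves reached 0.644 to 0.791 of the Popdc3 level in CON, 0.306 to 0.506 in KD and 0.464 to 0.688 in RE. The CON and KD ranges did not overlap, while RE overlapped with both. Added together, the family held 127 ± 23.7 TPM in CON, 18.4 ± 2.25 in KD and 47.4 ± 6.70 in RE (SD, n = 4 each).

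Popdc2, which in mice is needed with Popdc1 for normal pacemaking under stress, was close to absent from the table in all groups. It was at 0.260, 0.647, 0.129 and 0.539 TPM in CON. In KD it was listed at 0 in KD 1 and at 0.161, 0.495 and 0.112 TPM in the other libraries. In RE it was listed at 0 in RE 2 and RE 4, at 0.114 TPM in RE 1 and at 0.356 TPM in RE 3. All 3 groups overlapped, and Popdc2 was below the mean of 1 TPM that a gene needed to be tested. Its log2(TPM + 1) differences, from a fit without that filter, were -0.23 ± 0.15 (SE; 95% interval -0.56 to 0.11) for KD against CON, -0.09 ± 0.15 (-0.43 to 0.25) for RE against KD and -0.31 ± 0.15 (-0.65 to 0.02) for RE against CON.

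**Figure D1:**
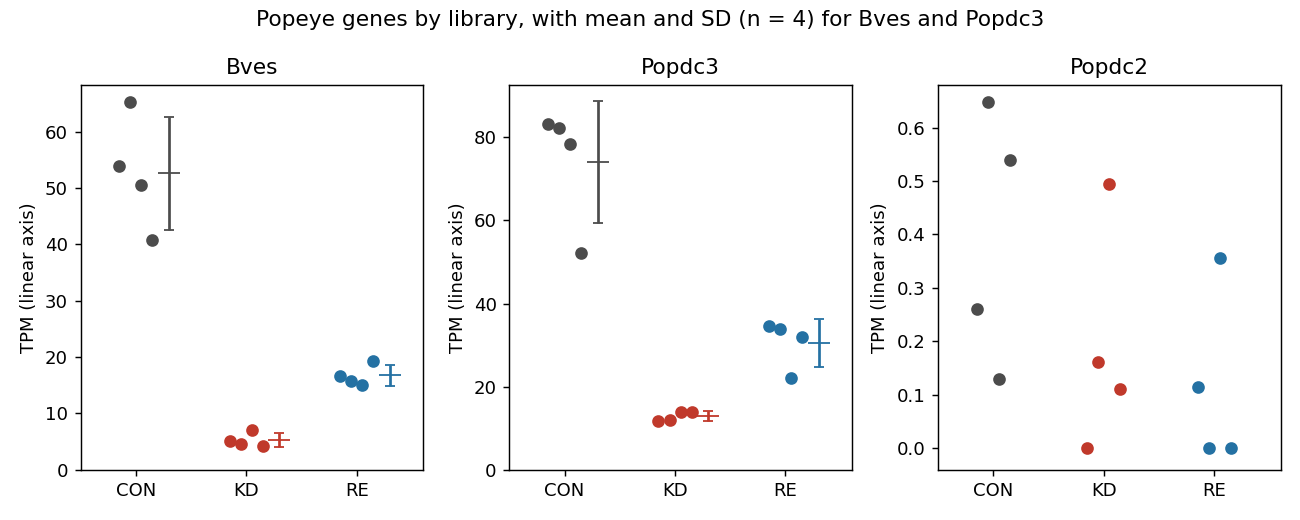
TPM of Bves, Popdc3 and Popdc2 on linear axes in the CON, KD and RE libraries, with each point a library and, for Bves and Popdc3, the group mean and SD (n = 4). For Bves and Popdc3 the 3 groups are separate, with KD lowest and RE between KD and CON; for Popdc2, at 0.647 TPM or less everywhere, they overlap.

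Among the 11774 tested genes, 10.2% were called in KD against CON (limma, Benjamini-Hochberg adjusted p below 0.05), with 6.6% higher and 3.61% lower. In RE against KD 1.04% were called, with 0.187% higher, 22 genes, and 0.858% lower. In RE against CON 6.33% were called, with 2.7% higher and 3.63% lower. The same rule, given here as a description since the family was chosen on these values, placed Bves and Popdc3 among the genes lower in KD against CON, higher in RE against KD and lower in RE against CON. By size of difference Bves was the 32nd and Popdc3 the 52nd lowest of all tested genes in KD against CON, and they were the 13th and the 44th highest in RE against KD. Groups without overlap, as in Bves and Popdc3, were found in 7.02% of tested genes with KD below CON, in 3.47% with RE above KD, and in 4.76% with RE below CON; RE lay wholly above CON in 4.46%, which holds for neither gene. The median difference of all tested genes was -0.01 in KD against CON, -0.29 in RE against KD and -0.27 in RE against CON. Median-of-ratios scaling brought the median to 0.00 in RE against KD and 0.01 in RE against CON. It also moved the share of higher genes among the called from 17.9% to 41.0% in RE against KD and from 42.7% to 54.0% in RE against CON. Under that scaling Bves differed by 1.82 and Popdc3 by 1.48 in RE against KD. The comparisons share libraries, so their values for a gene are not independent of each other. In bulk RNA, fewer cells that express a gene and less RNA per cell cannot be told apart.

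Genes flanking the Bves and Popdc3 pair on chromosome 10 were compared at the same scale, 3 protein-coding genes to each side. Prep, the prolyl endopeptidase gene next to Popdc3, was at 186 ± 82.0 TPM in CON, 125 ± 13.8 in KD and 97.5 ± 40.2 in RE, a difference of -0.40 ± 0.42 in KD against CON (adjusted p = 0.656) and -0.46 ± 0.42 in RE against KD (adjusted p = 0.430). Beyond it, Prdm1, a transcriptional repressor gene, differed by -0.09 (adjusted p = 0.911) and the autophagy gene Atg5 by 0.00 (adjusted p = 0.997) in KD against CON. On the Bves side, Lin28b, which codes for an RNA-binding protein of early development, and the glutamate receptor gene Grik2 were at 0.133 TPM or less in every library, and Hace1 for a ubiquitin ligase differed by 0.01 (adjusted p = 0.997). None of the 4 neighbours that were tested passed in any of the 3 comparisons (limma). Their lowest adjusted p was 0.144, for Prdm1 in RE against CON, which alone among them had an unadjusted p below 0.05 (0.0278). Among the neighbours of Popdc2 on chromosome 16, the phospholipase gene Pla1a rose by 0.65 (adjusted p = 0.0279) and Maats1 fell by 0.98 (adjusted p = 0.0166) in KD against CON on the log2 scale. Both calls were lost once any of CON 1 to 3 or KD 2 was left out, that of Pla1a also without KD 1, KD 3 or KD 4 and under median-of-ratios scaling (adjusted p of up to 0.164), that of Maats1 with an adjusted p of up to 0.0626. Cox17, Adprh and Cd80 did not pass there, and Gm21987 is not a row of the table.

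**Figure D2:**
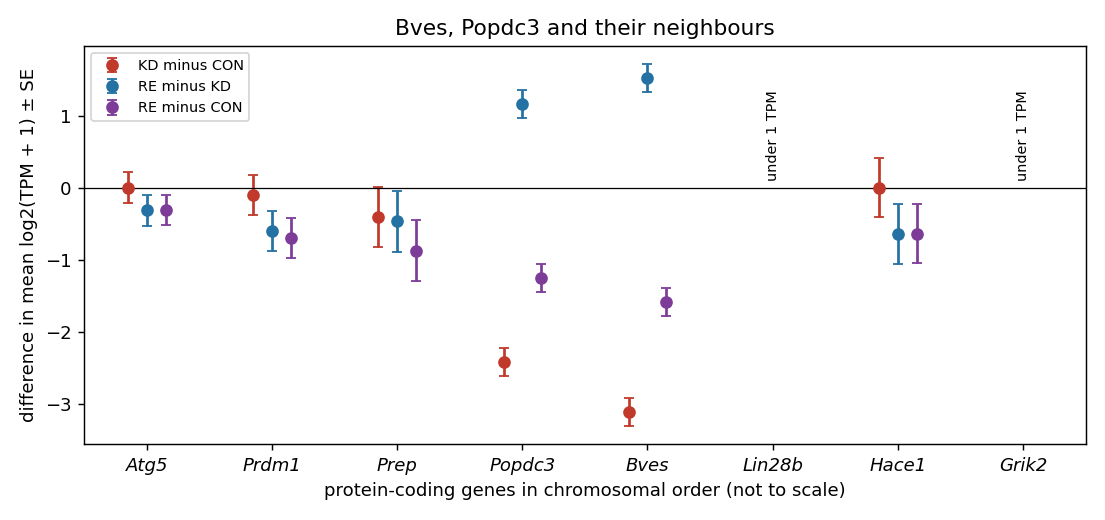
Differences in mean log2(TPM + 1) with their SE for the 8 protein-coding genes around Bves and Popdc3, in chromosomal order, for KD minus CON, RE minus KD and RE minus CON. Popdc3 and Bves stand at -2.41 and -3.10 in KD minus CON, and the tested neighbours lie between -0.40 and 0.01; Lin28b and Grik2 were too low to test.

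The genes whose levels ran most alike were sought among 9627 other genes with a mean of at least 5 TPM, as the root mean square distance between centred log2(TPM + 1) values over the 12 libraries. The gene closest to Bves was Popdc3, at a distance of 0.35, and the gene closest to Popdc3 was Bves, where the median distance of all these genes was 1.34 to Bves and 1.06 to Popdc3. Among the 5 closest to Bves were also Dynap (0.42), Casc4 (0.60) and Acsbg1 for an acyl-CoA synthetase (0.62). Those next to Popdc3 were Itgb7 for an integrin beta subunit (0.40), Acsbg1 (0.40), Tead2 for a transcription factor of the Hippo pathway (0.44) and Dynap (0.44). Dynap stood at 44.9 ± 5.79 TPM in CON, 5.15 ± 2.01 in KD and 13.3 ± 6.91 in RE, with all CON libraries above all others and RE 3 (6.28 TPM) inside the KD range. Itgb7 stood at 49.5 ± 3.63 TPM in CON, 16.0 ± 6.07 in KD and 29.9 ± 6.18 in RE. Casc4 was low in both KD and RE, at 0.851 ± 0.108 and 1.83 ± 0.593 TPM against 13.9 ± 7.09 in CON. The likeness is a description over libraries that form 3 groups, so it mostly states the order and spacing of the groups.

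**Figure D3:**
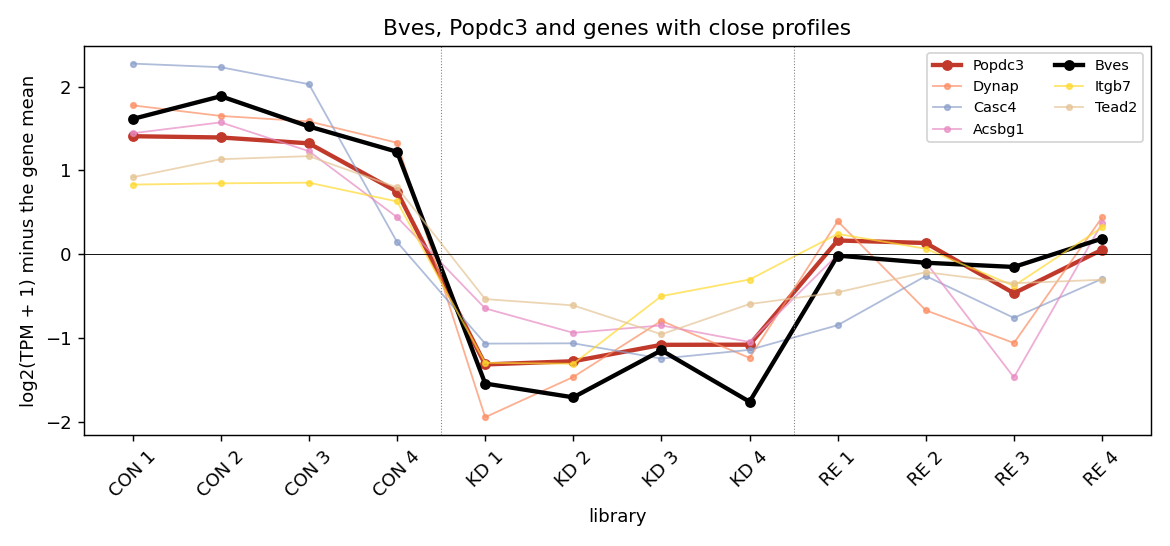
Centred log2(TPM + 1) of Bves and Popdc3 (thick lines) and of 5 other genes close to them in each of the 12 libraries. All lines are highest in CON; Bves and Popdc3 keep close to each other and rise again from KD to RE by 1.52 and 1.16, while the others rise by 1.14 (Dynap), 0.91 (Itgb7), 0.59 (Casc4), 0.57 (Acsbg1) and 0.34 (Tead2).

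Popeye proteins share cAMP with other binding proteins, of which the regulatory subunits of protein kinase A (PKA) are the best known. Prkar1a, the most abundant of them, was at 508 ± 137 TPM in CON, 557 ± 87.5 in KD and 394 ± 84.5 in RE, and its differences did not pass (adjusted p = 0.757 for KD against CON). Prkar2b was at 196, 187, 179 and 111 TPM in CON, 384, 384, 235 and 303 in KD, and 147, 303, 181 and 228 in RE. Every KD library lay above every CON library for Prkar2b, as for 11.9% of all tested genes. The rise was 0.96 ± 0.25 (SE, limma adjusted p = 0.0299). Rapgef4, which codes for the cAMP-activated exchange factor EPAC2, rose in KD by 1.27 ± 0.21 (adjusted p = 0.00214), from 0.394 to 1.20 TPM in CON to 2.58 to 3.42 TPM in KD. Of the 14 other cAMP-binding effector genes 6 were tested, and these 2, named after their values were seen, rose in KD and 0 fell. Of all tested genes 6.6% rose and 3.61% fell. At an unadjusted p below 0.05 the effector counts were 3 and 0, beside 13.6% and 10.2% of all tested genes. Of genes for cAMP-gated pacemaker channels, Hcn2 was at 0.270 to 1.17 TPM over all libraries, Hcn3 was at 0.115 TPM or less, and Hcn4 was listed at 0 in every library. In CON Popdc3 and Bves were above Rapgef3 (8.71 ± 1.58 TPM), Rapgef4 and Prkar1b in level per length, and in KD Bves was below Rapgef3 (12.05 ± 1.40 TPM). The Prkar2b call did not hold once CON 2, CON 3 or any of KD 1, 2 and 4 was left out (adjusted p of up to 0.101). Rapgef4 kept its call in all 20 alternative runs that tested it, and a minimum mean of 5 TPM left it out.

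**Figure D4:**
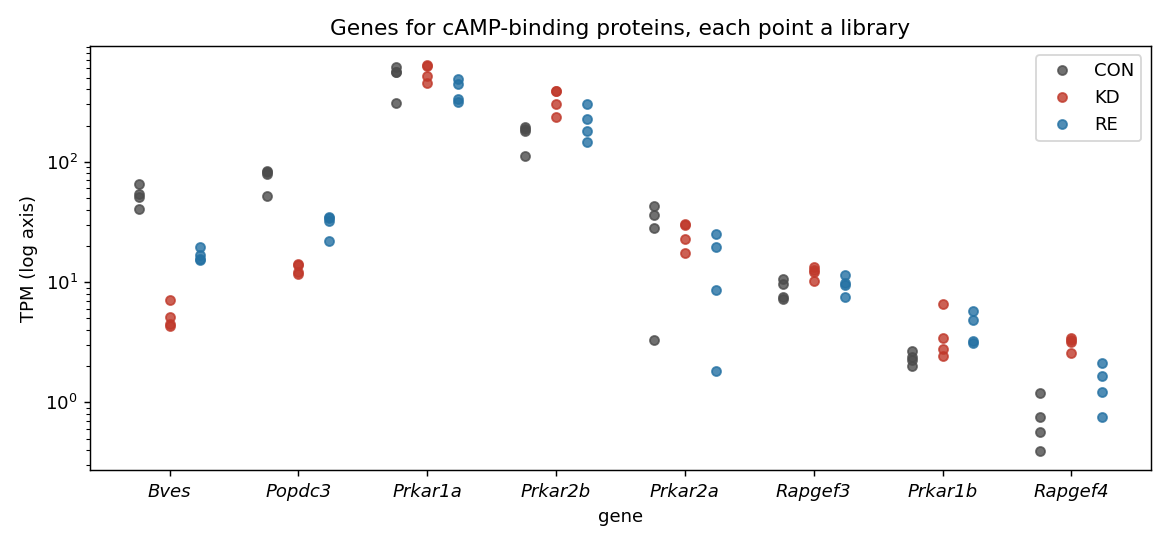
TPM on a log axis of Bves, Popdc3 and 6 other genes for cAMP-binding proteins, with each point a library of CON, KD or RE. Bves and Popdc3 drop in KD to 14.0 TPM or less, while Prkar1a is at 307 TPM or more in every library. Prkar2b and Rapgef4 are higher in every KD than in every CON library, as are 11.9% of all tested genes.

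Of 112 other genes of cAMP signalling and Popeye partners in 8 lists, 73 were tested. In KD against CON 13 of them rose (17.8%) and 3 fell (4.11%), beside 6.6% and 3.61% of all tested genes, and their median difference was 0.17 beside -0.01. At an unadjusted p below 0.05, 13.6% of all tested genes were higher and 10.2% lower. The phosphodiesterases, which break down cAMP, counted 4 rises and 0 falls among 11 tested genes (4 and 0 at an unadjusted p below 0.05). Pde1a, a calcium-activated form, was at 4.11, 3.48, 2.58 and 1.01 TPM in CON and at 13.7, 17.6, 13.9 and 11.3 TPM in KD. All KD libraries were higher, as for 11.9% of all tested genes, and the rise was 2.06 ± 0.28 (limma adjusted p = 0.000493). Pde8b, a high-affinity form, rose by 1.497 ± 0.21 (adjusted p = 0.000601), from 0.596 to 1.12 TPM in CON to 3.39 to 5.28 TPM in KD. The other 2, named after their values were seen, were Pde2a (1.05 ± 0.21, adjusted p = 0.00590) and Pde4a (0.66 ± 0.17, adjusted p = 0.0252). The Pde4a call did not hold once CON 2, CON 3 or any of KD 1, 3 and 4 was left out, nor under median-of-ratios scaling, quantile normalization or the transcript length correction (adjusted p of up to 0.116).

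Among 8 tested partner genes of Popeye proteins, 2 rose and 0 fell in KD, beside 6.6% and 3.61% of all tested genes. At an unadjusted p below 0.05 the counts were also 2 and 0, beside 13.6% and 10.2% of all tested genes. Dysf, which codes for the membrane repair protein dysferlin, was at 4.22, 3.18, 3.19 and 2.49 TPM in CON and 14.4, 13.7, 8.05 and 11.1 TPM in KD, a rise of 1.57 ± 0.24 (adjusted p = 0.00110). Arhgef25 for the exchange factor GEFT, named after its values were seen, rose by 0.63 ± 0.16 (adjusted p = 0.0278). Kcnk2 for the channel TREK-1 was at 6.79 ± 2.30 TPM in CON, 10.0 ± 0.89 in KD and 11.5 ± 3.31 in RE, and its difference of 0.56 in KD against CON had a 95% interval of -0.02 to 1.14 (adjusted p = 0.228). The call of Arhgef25 did not hold once any of CON 1 to 3 or KD 1 to 4 was left out (adjusted p of up to 0.0927), nor under median-of-ratios scaling (0.208), quantile normalization (0.0758) or the transcript length correction (0.0762).

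Genes of the receptor side moved both ways. Of 16 tested receptors, G proteins and receptor regulators 2 rose and 2 fell in KD, beside 6.6% and 3.61% of all tested genes. Adora2a, for an adenosine receptor that raises cAMP, rose by 1.46 ± 0.29 (limma adjusted p = 0.00597). Adora2b, another adenosine receptor gene of the list named after its values were seen, was at 17.6 ± 3.12 TPM in CON and 15.6 ± 2.74 in KD. It did not pass (-0.17 ± 0.18, limma adjusted p = 0.672). Vipr1 for a peptide hormone receptor, named after its values were seen, rose by 0.89 ± 0.17 (limma adjusted p = 0.00550). Arrb2 for beta-arrestin 2 was among those that fell, with a difference of -0.74 ± 0.15 (adjusted p = 0.00816), from 43.6 ± 4.97 to 25.7 ± 2.96 TPM. Of the 3 tested adenylyl cyclases, which make cAMP, 0 rose and 0 fell, with Adcy6 at 0.89 ± 0.29 (limma adjusted p = 0.0710). At an unadjusted p below 0.05 their counts were 1 and 0, beside 13.6% and 10.2% of all tested genes. The 5 tested PKA catalytic subunits and inhibitors likewise had 0 rises and 0 falls, also at an unadjusted p below 0.05.

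Of 14 CREB family factors and cAMP-induced genes 3 rose and 0 fell in KD, beside 6.6% and 3.61% of all tested genes. At an unadjusted p below 0.05 the counts were 7 and 0, beside 13.6% and 10.2% of all tested genes. Dusp1 for a MAP kinase phosphatase rose by 1.44 ± 0.23 (adjusted p = 0.00182), from 71.6 ± 18.3 to 194 ± 31.2 TPM; it overlaps Ergic1 on the opposite strand, and strand use in the counting is not given. The nuclear receptor gene Nr4a2 was at 33.5, 31.8, 44.7 and 25.3 TPM in CON, 134, 96.5, 64.3 and 69.1 TPM in KD and 13.0, 45.4, 12.9 and 29.8 TPM in RE. All KD libraries were above all others, with a rise of 1.37 ± 0.38 on the log2 scale in KD against CON (limma adjusted p = 0.0397). Of all tested genes, 11.9% had every KD library above every CON library, and 10.8% had every RE library below every KD library. Crem, a cAMP-responsive transcription factor gene named after its values were seen, rose by 0.87 ± 0.20 (adjusted p = 0.0159). The list counted 6 rises and 0 falls with CON 4 left out, where 9.48% of all tested genes were higher. It counted 1 rise with CON 2, CON 3 or KD 1 left out, where 4.75%, 4.56% and 4.29% of all tested genes were higher. The call of Nr4a2 did not hold with no TPM filter or once any of CON 1 to 3 or KD 1, 2 and 4 was left out (adjusted p of up to 0.136). That of Crem did not hold under median-of-ratios scaling or quantile normalization, or once CON 2, CON 3, KD 1 or KD 4 was left out (up to 0.0861).

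Of 11 tested A-kinase anchor genes, whose proteins hold PKA in place, 0 rose and 1 fell in KD. The shares of all tested genes were 6.6% and 3.61%. At an unadjusted p below 0.05 the anchor counts were also 0 and 1, beside 13.6% and 10.2% of all tested genes. The gene that fell was Ezr for the membrane linker ezrin, at 160, 167, 158 and 61.4 TPM in CON, 61.6, 54.5, 44.7 and 47.7 TPM in KD and 36.0, 50.7, 28.3 and 55.6 TPM in RE. Ezr overlaps Sytl3 on the opposite strand. CON 4 lay inside the KD range, and the difference was -1.28 ± 0.31 (adjusted p = 0.0208). The Ezr call needed each of CON 1 to 3 and of KD 2 and 4, and the highest adjusted p with any of them left out was 0.0699. Over all 8 lists the count of rises in KD was 8 without CON 2, CON 3 or KD 1, and that of falls 1 without KD 2 or KD 4, where 2.05% and 2.23% of all tested genes fell. Without CON 4, RE 1 and RE 3 together 19 rose and 13 fell, where 14.2% and 25.1% of all tested genes did.

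**Figure D5:**
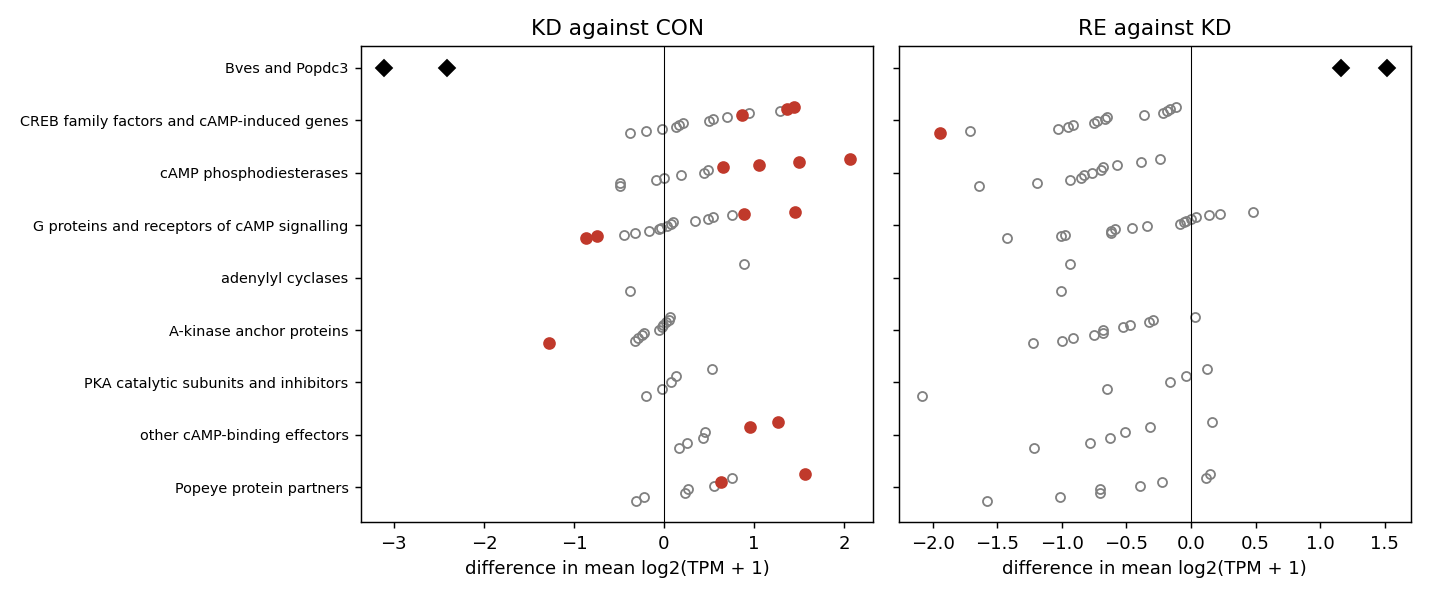
Differences in mean log2(TPM + 1) of the 73 tested genes of 8 cAMP signalling lists (circles, filled where the limma adjusted p was below 0.05) and of Bves and Popdc3 (diamonds, no test), for KD against CON on the left and RE against KD on the right. Each gene appears in 1 list only, so Adcy9 stands among the partners; 13 filled circles lie right of 0 and 3 left of it in KD against CON, and in RE against KD 1 is filled, Nr4a2, while Bves and Popdc3 lie to the right at 1.52 and 1.16.

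In RE against KD, where Bves and Popdc3 were higher, 0 of the 73 signalling genes rose and 1 fell (limma; 1 and 32 at an unadjusted p below 0.05), beside 0.187% and 0.858% of all tested genes. At an unadjusted p below 0.05, 6.36% of all tested genes were higher and 21.6% lower in this comparison. The gene that fell was Nr4a2, with every RE library below every KD library, as for 10.8% of all tested genes. It fell by 1.94 on the log2 scale (SE 0.38, limma adjusted p = 0.0376). That call needed every library other than CON 4, KD 3 and RE 2, and the highest adjusted p with 1 of them left out was 0.166. The median difference of the 73 genes was -0.63 beside -0.29 for all tested genes. For all tested genes it was 0.00 under median-of-ratios scaling and 0.01 with the transcript length correction, and that of the 73 genes is not given for either. Long transcripts deviated by a median of -0.99 to -0.11 in RE libraries and -0.21 to 0.56 in KD libraries. The part of transcript length in these falls was not tested. The count of falls was 31 without CON 4, where 19.9% of all tested genes were called lower, 4 without KD 3 (2.65%) and 6 without RE 2 (3.44%). Pde1a, Pde8b and Rapgef4, which rose in KD, were at 7.86 ± 1.32, 2.42 ± 0.76 and 1.44 ± 0.59 TPM in RE (SD, n = 4 each), between their CON and KD means, and none of the 3 passed in RE against KD.

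In RE against CON 2 of the 73 genes rose and 3 fell, beside 2.7% and 3.63% of all tested genes. Pde1a (1.29 ± 0.28, adjusted p = 0.0139) and Pde8b (0.81 ± 0.21, adjusted p = 0.0353) were higher. Ezr (-1.60 ± 0.31, adjusted p = 0.00857), Arrb2 (-0.60 ± 0.15, adjusted p = 0.0350) and Pde10a (-1.67 ± 0.37, adjusted p = 0.0162) were lower, Pde10a going from 8.28, 6.95, 5.81 and 1.98 TPM in CON to 0.721, 1.30, 0.582 and 1.31 TPM in RE. Without CON 4, 9 rose and 31 fell, where 42.0% of all tested genes were called lower, and single calls were lost without other libraries: Pde8b with any of CON 1 to 3, KD 2, KD 4, RE 2 and RE 3 left out (adjusted p of up to 0.129), Pde10a with any of CON 1 to 3 or RE 3 (up to 0.0618), and Arrb2 with any of CON 1 to 3, KD 4 or RE 2 to 4. Under quantile normalization the adjusted p of Arrb2 was 0.265, its highest.

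Bves and Popdc3 are known as muscle genes, so the muscle and fibroblast markers are set beside them. All 4 tested skeletal muscle markers (Myod1, Myf5, Chrna1 and Acta1) fell in KD against CON, where 3.61% of all tested genes fell. Myod1 (means of 0.031 TPM in KD and 0.033 in RE) and Acta1 (0.34 and 0.65) reached the mean of 1 TPM only through CON. For these genes only a fall could be called, so the count cannot be weighed against that share. The summed level of the 8 genes of that list went from 21.6 to 41.2 TPM in CON to 8.13 to 10.4 TPM in KD. Myf5 lost its call once any of CON 1 to 3, KD 1, KD 2, KD 4 or RE 1 was left out (adjusted p of up to 0.118). In RE the summed level was 7.35 to 15.2 TPM, overlapping with KD, and 0 of the 4 rose or fell in RE against KD (limma, also with an unadjusted p below 0.05). Myod1 was listed at 0 in KD 1, KD 2, KD 3, RE 1, RE 2 and RE 4, where Bves and Popdc3 were at 15.7 TPM or more in those RE libraries. Among 5 tested fibroblast markers 0 rose and 2 fell in KD against CON, 0 rose and 2 fell in RE against KD, and 0 rose and 3 fell in RE against CON. Of all tested genes 3.61%, 0.858% and 3.63% fell in these comparisons, in that order. The falls in RE against KD were Col1a1, lost in 12 of 22 alternatives, and Col1a2, lost in 13 of 22. The fibroblast genes are named after their values were seen. Dcn, for the matrix proteoglycan decorin, was at 23.6 to 81.4 TPM in CON, 4.10 to 6.18 in KD and 2.67 to 4.11 in RE, with KD and RE both below CON and overlapping with each other (KD against CON -2.65 ± 0.33, adjusted p = 0.000304). The collagen gene Col1a1 was at 78.3 to 108 TPM in CON, 41.8 to 64.5 in KD and 21.0 to 33.5 in RE, and its fall in KD (-0.75 ± 0.19, adjusted p = 0.0244) did not hold once any of CON 1 to 3 or KD 4 was left out (up to 0.0798). The summed cardiomyocyte markers, nearly all Tnnt2, were at 14.9 to 27.6 TPM in CON, 14.0 to 18.2 in KD and 14.7 to 26.4 in RE, and none of Myl4, Nr2f2 and Tnnt2, the tested atrial and cardiomyocyte markers, passed in any comparison (limma; at an unadjusted p below 0.05, 1 atrial marker was higher in KD and in RE than in CON). The part of the skeletal muscle and fibroblast markers in the Popeye levels was not tested.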

How the data were processed

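Total RNA from HL-1 cells was extracted with TRIzol and sequenced, per the labels' protocols. The authors deposited 1 table of TPM values for 23184 gene symbols and 12 libraries, in which each column sums to 1000000 TPM and 6088 symbols are at 0 throughout. Reads were handled with Trim Galore 0.6.6, TopHat2 2.1.1 and Cufflinks 2.2.1 on mm10, per the submitters' processing notes; annotation and strand use are not given in the sources used here. TPM keeps no depth, so no counting error could be given.

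Groups were taken from the sample titles. The 4 control columns are named by genotype and were placed in CON without a replicate number of the labels; CON 1 to CON 4 are the columns in the order of their own numbers. The labels do not say whether the libraries of a group are separate cultures; p-values then measure only the spread between these libraries, which may be technical. Values were taken as log2(TPM + 1), the 11774 genes averaging at least 1 TPM were fitted over all 12 libraries with limma 3.58.1 (empirical Bayes with a trend, R 4.3.3), and p-values were adjusted over all tested genes by Benjamini-Hochberg at 0.05. The code was tested on simulated data. Popdc2 was fitted without the filter. Single-gene permutation tests used scipy 1.17.1. The family, the 8 signalling lists and the 8 marker lists were chosen with earlier results of these data known. Of 112 signalling genes 112 were found, Grk2 and Grk3 under their older symbols Adrbk1 and Adrbk2.

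Genes named are the 3 family members, Wdr62, in each comparison up to 6 listed genes called higher and up to 6 called lower by size, the 5 genes nearest in profile to Bves and to Popdc3 (mean of at least 5 TPM), and 3 protein-coding neighbours to each side; others are said to be named after their values were seen, and some genes that the rule takes are not reported here. Gene models and coding sequences came from GENCODE M21 on GRCm38, aligned with Biopython 1.88. Alternatives tried were no filter on TPM, a pseudocount of 0.1, a mean of at least 5 TPM, a difference of at least 1, median-of-ratios and quantile scaling, robust moderation, the compared groups alone, a replicate block, each library left out, CON 4, RE 1 and RE 3 left out, and, chosen after seeing the data, a loess correction for transcript length (span 0.5).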

Additional observations from a re-analysis of the deposited data

Results flagged for a closer look

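Popdc3 in CON 4 was at 52.2 TPM, while the other CON libraries were at 78.4 to 83.3 TPM. The gap to the nearest library was 0.844 of the group's range, above Dixon's critical value for 4 libraries at the 95% level. Ezr in CON 4 was at 61.4 TPM, with the other CON libraries at 158 to 167 TPM and a gap of 0.913 of the range. These were the 2 values past that limit in 42 groups of 4 libraries checked, and chance alone gives about 1 in 20. CON 4 is also the control library in which long transcripts were lowest. The cause was not tested.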

How the results depend on the processing

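No difference of Bves or Popdc3, nor that of Wdr62 in KD against CON, changed its sign in any alternative run. Wdr62 in RE against KD, not called, was below 0 in 3 of 12 fits with 1 library left out (KD 4, RE 1 or RE 4). With 1 library left out, Bves ranged from -3.24 to -3.00 in KD against CON, 1.45 to 1.65 in RE against KD and -1.70 to -1.48 in RE against CON. Popdc3 ranged from -2.57 to -2.34, 1.10 to 1.31 and -1.40 to -1.10 in the same order, Popdc2 from -0.34 to -0.14, -0.18 to 0.03 and -0.41 to -0.23, and Wdr62 from -1.88 to -1.56 in KD against CON. RE against KD was larger under median-of-ratios scaling (Bves 1.82, Popdc3 1.48), quantile normalization (1.93 and 1.52) and, for Bves, the transcript length correction (1.97). Bves in RE against CON was then -1.29, -1.23 and -1.17. A pseudocount of 0.1 put Popdc2 at -0.90, -0.44 and -1.33. A minimum mean of 5 TPM left no value for Popdc2 or Wdr62.

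For the 73 signalling genes in KD against CON, the 13 rises became 8 with a difference of at least 1 and 8 to 17 with 1 library left out. The 3 falls became 1 with a difference of at least 1, 6 with no filter, 13 without CON 4, RE 1 and RE 3, 5 with the length correction and 1 to 3 with 1 library left out. In RE against KD the 1 fall became 0 with no filter, without CON 4, RE 1 and RE 3 or with the compared groups alone, and 0 to 31 with 1 library left out. In RE against CON the 2 rises became 1 with a difference or a mean TPM floor (at least 1 and at least 5), 8 with median-of-ratios scaling, 9 with quantile normalization or without the 3 libraries, 10 with the length correction, 0 with the compared groups alone and 1 to 9 with 1 library left out. The 3 falls became 6 with no filter, 16 without the 3 libraries and 1 to 31 with 1 library left out. The cause was not tested.

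With the replicate number as a block, 19 signalling genes fell in RE against KD, where 15.0% of all tested genes did. Same-numbered KD and RE libraries correlated at -0.554, 0.652, 0.239 and -0.252, and 1 of 4 correlated best with its own number. With 4 pairs, and with library-wide shifts such as that of long transcripts in these values, this cannot decide whether they were paired. No paired analysis was possible because the CON columns carry no replicate number of the labels, for the comparisons with CON. Without depth, zeros of Popdc2 cannot be given a limit.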
